A study of Homo sapiens with 12 samples.

Results

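The keratin family was taken as every gene symbol made of KRT, a number and at most a letter from A to C, which gave 55 genes of the 39368 symbols counted and left out pseudogenes. They were measured by RNA-seq in HSC3/tet-MUC1shRNA and CAL27/tet-MUC1shRNA cells, established HPV-negative head and neck squamous carcinoma lines that carry an shRNA against MUC1 under a doxycycline (DOX) switch. The cells of each line were treated for 7 days with vehicle (0.1% DMSO) or with 500 ng/ml DOX, with 3 libraries in each of the 4 groups. CAL27 cells were grown in DMEM and HSC3 cells in MEM, both with serum, so line and medium cannot be told apart. DOX-treated cells with a control shRNA were not analysed here, so the loss of MUC1 and any further action of DOX or the hairpin cannot be told apart. The labels say that cells were grown in triplicate, with no word on whether the cultures were set up independently, so the p-values measure the spread between these cultures. MUC1 itself fell in both lines, from 63.9, 58.9 and 59.9 CPM (read counts scaled to a common library size) to 3.19, 3.06 and 3.58 in CAL27 cells, and from 1.51, 1.78 and 1.5 to 0.279, 0.244 and 0.120 in HSC3 cells.

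Keratins are the intermediate filament proteins of epithelial cells, and a filament is built from a type I and a type II keratin that pair in equal amounts. Basal cells of stratified epithelia make KRT5 with KRT14 and KRT15. Cells that leave the basal layer of the oral mucosa switch to KRT4 with KRT13, and those of the epidermis to KRT1 with KRT10. KRT6A, KRT6B, KRT6C, KRT16 and KRT17 are induced on wounding and in hyperproliferation, and are called activation keratins below. KRT8, KRT18, KRT19 and KRT7 belong to simple, single-layered epithelia. Of the 55 genes, 27 lie on chromosome 12 between 52168996 and 52952906 (26 type II genes and KRT18), and 28 lie on chromosome 17 between 40654665 and 41624842 (27 type I genes and KRT222), in GRCh38 with the GENCODE v44 annotation.

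Keratin genes are the products of repeated duplication, which bears on how their reads can be told apart. KRT6A, KRT6B and KRT6C each have a coding sequence of 1692 bases, and their pairwise identity was 97.52% for KRT6A and KRT6B, 97.93% for KRT6A and KRT6C, and 98.52% for KRT6B and KRT6C. The stretch from base 656 to base 745 of the coding sequence, the 90-base window in which they differ most, is given here 5′ to 3′ on the coding strand. Capitals mark the 10 positions at which the 3 genes are not all alike, of 51 such positions in the whole coding sequence. The stretch lies on the minus strand of GRCh38 in an exon, at chr12:52491532-52491621 in KRT6A, chr12:52450416-52450505 in KRT6B and chr12:52472076-52472165 in KRT6C.
KRT6A: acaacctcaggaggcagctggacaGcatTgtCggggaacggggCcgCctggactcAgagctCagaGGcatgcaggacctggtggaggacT
KRT6B: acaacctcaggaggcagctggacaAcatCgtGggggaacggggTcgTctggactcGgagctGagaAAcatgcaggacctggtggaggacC
KRT6C: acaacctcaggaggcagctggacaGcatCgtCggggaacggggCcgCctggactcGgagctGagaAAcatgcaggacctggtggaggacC
In KRT6A, KRT6B and KRT6C, 39.2%, 46.6% and 53.1% of all 50-base stretches of the exons also occur in another gene. The same share was 39.2% for KRT8 and 35.3% for KRT18, shared mostly with processed pseudogenes, 24.2% for KRT14, 21.8% for KRT16 and 17.4% for KRT17. It was 4.5% for KRT5, 1.8% for KRT19 and 1.0% for KRT15 and KRT13. How the counting treated reads that match several genes is not given in the sources used here, so values of the genes with a large share are less certain.

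RefSeq promoter entries on GRCh38.p14, 250 bases before to 50 after a start site, were found for 34 of the 55 keratins. The promoter of KRT5, which fell in both lines, that of KRT4, which fell in CAL27 cells, and that of KRT10, which did not pass for DOX in either line, are printed as examples of unlike responses, 5′ to 3′ on the minus strand, at chr12:52520345-52520644, chr12:52814067-52814366 and chr17:40822565-40822864.
KRT5: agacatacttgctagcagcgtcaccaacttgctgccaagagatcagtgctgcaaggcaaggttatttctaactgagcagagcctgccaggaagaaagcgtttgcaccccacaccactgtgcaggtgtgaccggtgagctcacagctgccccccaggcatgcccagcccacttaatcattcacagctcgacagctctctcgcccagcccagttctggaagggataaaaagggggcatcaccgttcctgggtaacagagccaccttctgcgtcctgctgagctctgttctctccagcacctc
KRT4: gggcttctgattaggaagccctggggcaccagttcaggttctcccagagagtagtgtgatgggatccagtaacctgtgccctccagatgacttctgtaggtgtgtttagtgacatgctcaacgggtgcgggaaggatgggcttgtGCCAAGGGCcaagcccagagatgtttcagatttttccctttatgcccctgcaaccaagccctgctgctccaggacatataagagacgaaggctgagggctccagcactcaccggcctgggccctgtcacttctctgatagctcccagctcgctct
KRT10: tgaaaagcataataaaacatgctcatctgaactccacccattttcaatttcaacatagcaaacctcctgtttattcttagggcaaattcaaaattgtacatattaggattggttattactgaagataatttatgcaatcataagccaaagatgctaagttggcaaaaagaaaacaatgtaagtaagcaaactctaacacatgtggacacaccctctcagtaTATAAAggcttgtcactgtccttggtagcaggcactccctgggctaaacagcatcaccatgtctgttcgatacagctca
Capitals mark an AP-2 match (GCCNNNGGC) that starts at -105 in KRT4 and a TATA match (TATAAA) that starts at -29 in KRT10. Of the keratins with at least 10 CPM in a group, only KRT4, KRT5, KRT8 and KRT10 had an entry, and KRT6A, KRT6C, KRT13, KRT14, KRT15, KRT16, KRT17, KRT18, KRT19 and KRT80 had none. Both strands were searched for 5 motifs, and matches to different motifs may overlap. Keratins were counted by gene, with a match in any entry, and KRT40 and KRT85 had several entries. The shares over all promoters were counted by entry, so the units differ. TATAAA was in an entry of 21 of the 34 keratins and in 11.5% of all 35116 promoter entries. The AP-2 motif was in 5 of the 34 and in 23.2% of all, the Sp1 motif (GGGCGG) in 6 and in 45% of all, the STAT motif GAS (TTCNNNGAA) in 2 and in 7.66% of all, and the AP-1 motif (TGANTCA) in 0 and in 7.71% of all. A match describes these letters in this window only, and these counts do not cover the keratins without an entry.

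Counts summed to between 89730914 and 169065103 per library. The estimated number of counts per RNA molecule was 2.42 to 3.38 in CAL27 cells. In HSC3 cells it was higher, at 4.19 to 7.45 with vehicle against 8.98 to 17.3 with DOX, with 17.3 in replicate 1. The estimate rests on zeros among genes with few counts, and spread between cultures can also give zeros. Duplication itself was not measured. Epithelial markers were high in all libraries, with a summed level of 3690 to 6790 CPM over 8 genes, and in CAL27 cells the sum was 6510 to 6790 CPM with vehicle against 3690 to 3950 with DOX. That lower sum lay mostly in CLDN1, a tight junction gene at 4410, 4150 and 4420 CPM with vehicle against 1680, 1520 and 1470 with DOX. Of the 8 markers, 3 were higher with DOX in CAL27 cells (EPCAM, CLDN4 and COL17A1) and 3 were lower (CLDN1, ITGB4 and ITGA6). There, 22.6% of all genes were higher and 21.8% lower. CDH1 and CLDN7 did not pass, with CDH1 at 318, 322 and 322 CPM against 337, 327 and 321. In HSC3 cells 2 were higher (EPCAM and CLDN4) and 1 was lower (ITGA6), beside 13% and 15.4% of all genes. The summed level was at most 15.7 CPM for 7 fibroblast markers, 5.78 CPM for 6 leukocyte markers and 16.8 CPM for 4 endothelial markers, and at 0 in all 3 libraries of a group were 1 to 4 of the fibroblast, 1 to 3 of the leukocyte and 0 to 2 of the endothelial markers. In bulk RNA, fewer cells of a kind and less RNA per cell cannot be told apart. The libraries with the lowest keratin share of all counts were those of HSC3 DOX replicate 1, at 0.291%, and a CAL27 DOX library, at 0.34%.

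With vehicle, both lines had the keratins of basal cells. KRT5 was at 4140, 4060 and 4020 CPM in the CAL27 libraries and at 2560, 2800 and 2520 in the HSC3 libraries, where it ranked 14th and 23rd of all symbols by CPM. Per kilobase of merged exons, the order in CAL27 cells was KRT5 at 986 ± 14.6 CPM per kb (SD, n = 3), KRT14 at 294 ± 6.03, KRT15 at 162 ± 5.70, KRT17 at 159 ± 2.60, KRT6A at 94.5 ± 4.72, KRT8 at 33.6 ± 1.92 and KRT18 at 29.5 ± 1.20. KRT15 and KRT17 did not differ beyond their spread on this length. The place of KRT15 depended on the length used, with 5969 bases of merged exons against 1712 in its canonical transcript. With no length, KRT15 was at 967 ± 34 CPM, above KRT14 at 664 ± 13.6 and KRT17 at 476 ± 7.8. In HSC3 cells the order was KRT5 at 636 ± 36.4 CPM per kb, KRT14 at 500 ± 53.8, KRT17 at 159 ± 17.6, KRT6A at 96.6 ± 6.80, KRT19 at 81.0 ± 8.09, KRT18 at 60.6 ± 1.87 and KRT8 at 41.4 ± 2.26. The order of KRT8, KRT18 and KRT19 depended on the gene length used. With the canonical transcript, KRT8 was at 1.24, 1.1 and 1.19 times KRT19 in the HSC3 vehicle libraries. It was at 1.2, 1.26 and 1.18 times KRT18 there. The 5 highest keratins made up 93.1% of the summed keratin level per kb of merged exons in CAL27 cells and 91.2% in HSC3 cells. After DOX, KRT5 stayed first in both lines at 475 ± 10.5 and 317 ± 33.1 CPM per kb, and KRT8 (91.7 ± 1.88) and KRT18 (70.4 ± 3.03) came next in CAL27 cells. In HSC3 cells with DOX, KRT14 (136 ± 22.3), KRT18 (134 ± 19.6), KRT8 (115 ± 22.5) and KRT19 (114 ± 24.0) followed. Their ranges over libraries overlapped, but the libraries varied together, and within each library KRT8 was below KRT18. The order of these 4 genes depended on the gene length used: with the canonical transcript, KRT8 was at 2.37, 2.3 and 2.26 times KRT19 in these libraries.

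**Figure D1:**
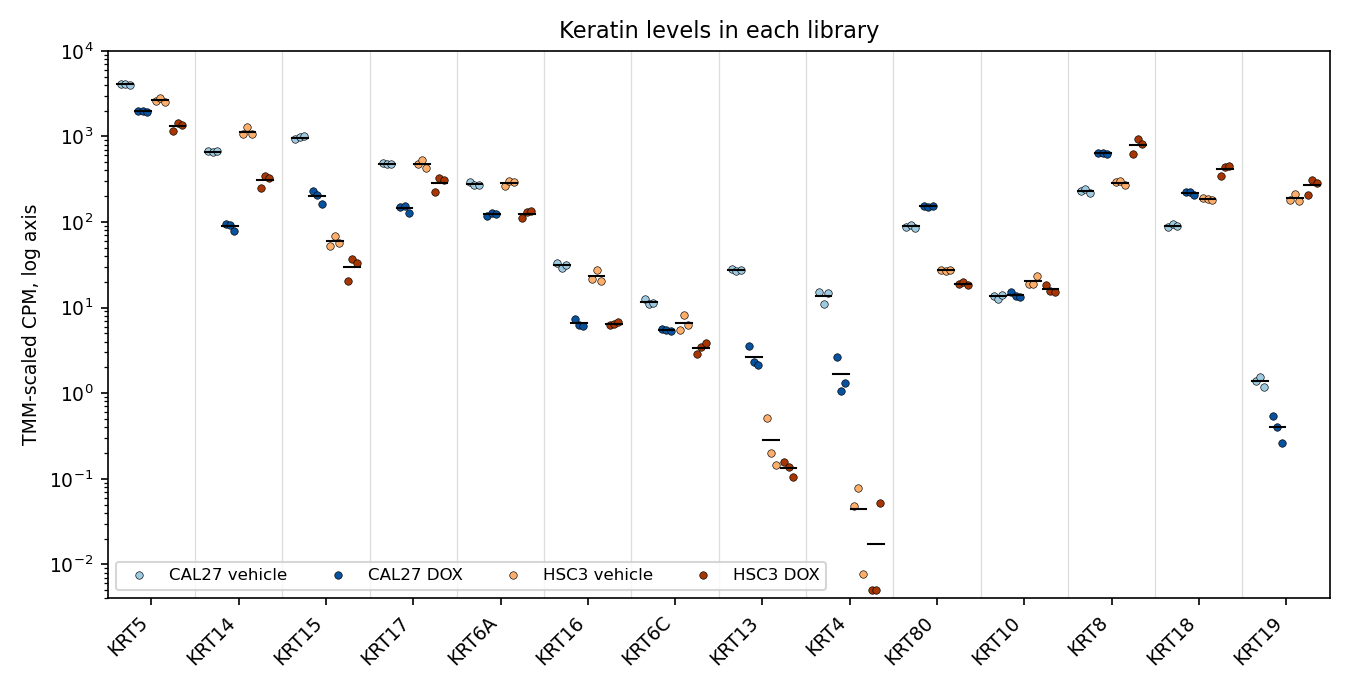
Level of the 14 keratins with a mean of at least 10 CPM in a group, as TMM-scaled CPM on a log axis. Each point is a library and each black line the mean of 3; HSC3 DOX libraries with a count of 0 for KRT4 are drawn at the lower edge, and KRT8 and KRT18 are the genes of the right-hand block that were higher with DOX in both lines.

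DOX was compared with vehicle within each line by edgeR's quasi-likelihood test, and a gene passed with a p under 0.05 after Benjamini-Hochberg adjustment across the whole table. Of the 55 keratins, 26 had enough counts to be tested in CAL27 cells and 23 in HSC3 cells. In CAL27 cells 16 keratins were lower with DOX, where 21.8% of all genes tested were lower, and 5 were higher, where 22.6% of all genes were. In HSC3 cells 10 were lower, against 15.4% of all genes, and 3 were higher, against 13% of all genes. Past 2-fold, the counts were 16 lower (5.11% of all genes) and 3 higher (1.31%) in CAL27 cells, and 6 lower (4.4%) and 2 higher (1.58%) in HSC3 cells. The median log2 fold change was -1.19 over the keratins tested in CAL27 cells and -0.90 over those in HSC3 cells, beside -0.01 over all genes in both. Of the 20 keratins tested in both lines, 8 were lower in both, 2 were higher in both and 2 passed in both with opposite signs. The same shares over 17164 genes were 8.62%, 7.82% and 3.56%.

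All 3 basal keratins fell in both lines. KRT5, the type II keratin of basal cells, was at 4140, 4060 and 4020 CPM in CAL27 cells with vehicle against 2000, 1970 and 1920 with DOX. In HSC3 cells it was at 2560, 2800 and 2520 CPM with vehicle against 1160, 1420 and 1360 with DOX, so the groups did not overlap in either line. The log2 fold change was -1.05 (SE 0.041, edgeR adjusted p = 6.9e-14) in CAL27 cells and -1 (SE 0.081, edgeR adjusted p = 6.9e-06) in HSC3 cells. The fall was thus 2.08-fold and 2.00-fold, and the difference between the lines was 0.05 (95% interval -0.15 to 0.25) on the log2 scale.

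KRT14, the type I partner of KRT5, was at 676, 649 and 667 CPM with vehicle against 95.5, 92.8 and 79.1 with DOX in CAL27 cells. It was at 1060, 1270 and 1060 CPM with vehicle against 250, 342 and 330 with DOX in HSC3 cells, and no DOX library reached the vehicle range of its line. KRT14 fell 7.45-fold in CAL27 cells (log2 fold change -2.90, SE 0.060, edgeR adjusted p = 2.6e-14) and 3.67-fold in HSC3 cells (log2 fold change -1.88, SE 0.118, edgeR adjusted p = 1.2e-06). KRT15, the other type I keratin of the basal layer, was at 931, 973 and 998 CPM with vehicle against 227, 207 and 164 with DOX in CAL27 cells. Among HSC3 libraries KRT15 was lower from the start, at 52.5, 69.0 and 57.0 CPM with vehicle against 20.4, 36.9 and 33.0 with DOX, and the lowest value was that of replicate 1. Its log2 fold change was -2.28 (SE 0.132, edgeR adjusted p = 8.3e-05) in CAL27 cells and -0.98 (SE 0.186, edgeR adjusted p = 0.00227) in HSC3 cells. In HSC3 cells the adjusted p of KRT15 was 0.0508 with no filter on low counts. Both type I genes therefore fell by more than KRT5 in CAL27 cells.

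All 5 activation keratins fell in both lines. KRT17, a type I keratin of wounded and hyperproliferating epithelium, was at 485, 474 and 470 CPM in CAL27 cells with vehicle against 151, 154 and 128 with DOX. In HSC3 cells KRT17 was at 470, 532 and 427 CPM with vehicle against 224, 322 and 311 with DOX. No DOX library reached the vehicle range of its line, with log2 fold changes of -1.72 (SE 0.058, edgeR adjusted p = 5.2e-12) and -0.74 (SE 0.127, edgeR adjusted p = 0.00127). KRT6A, the most abundant of the type II activation keratins, went from 292, 267 and 271 CPM to 118, 127 and 125 in CAL27 cells and from 260, 298 and 290 to 111, 129 and 133 in HSC3 cells. Its log2 fold changes were nearly the same in size, -1.17 (SE 0.044) and -1.19 (SE 0.081), with a difference of -0.02 (95% interval -0.23 to 0.19).

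KRT16, the type I partner of KRT6A, went from 32.9, 28.9 and 31.8 CPM to 7.29, 6.26 and 6.17 in CAL27 cells and from 21.7, 27.2 and 20.6 to 6.30, 6.34 and 6.84 in HSC3 cells. It fell 4.75-fold and 3.57-fold (edgeR adjusted p = 7.3e-15 and 2.0e-06). Reads on 6 KRT16 pseudogene symbols summed to 2.36% of those on KRT16 in CAL27 vehicle libraries and to 136% in HSC3 vehicle libraries (4.43% and 65% with DOX). The part of these pseudogenes in the KRT16 values of HSC3 cells was not tested. The near-identical KRT6B and KRT6C had far fewer counts than KRT6A: KRT6C went from 12.6, 11 and 11.2 CPM to 5.59, 5.45 and 5.35 in CAL27 cells and from 5.50, 8.12 and 6.28 to 2.85, 3.47 and 3.88 in HSC3 cells. KRT6B went from 4.34, 4.30 and 4.31 CPM to 1.80, 1.89 and 1.90, and from 3.12, 3.93 and 2.78 to 0.734, 0.874 and 1.32. All 3 KRT6 genes fell by a log2 fold change between -1.21 and -1.09 in CAL27 cells, and between -1.75 and -0.96 in HSC3 cells.

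Of 3 mucosal suprabasal keratins tested in CAL27 cells, KRT13 and KRT4 fell and KRT78 did not pass. KRT13, the type I keratin of differentiating oral epithelium, was at 28.4, 26.8 and 27.1 CPM with vehicle against 3.56, 2.34 and 2.13 with DOX, a 10.3-fold fall (log2 fold change -3.37, SE 0.159, edgeR adjusted p = 4.4e-07). Its type II partner KRT4 was at 15.1, 11.1 and 14.8 CPM with vehicle against 2.62, 1.07 and 1.33 with DOX, an 8.20-fold fall (log2 fold change -3.04, SE 0.357, edgeR adjusted p = 0.00202). In HSC3 cells both were close to the limit of detection, with 65, 18 and 19 counts of KRT13 with vehicle against 26, 20 and 14 with DOX (log2 fold change -1.10, SE 0.769, edgeR adjusted p = 0.345). KRT4 had 6, 7 and 1 counts in HSC3 cells with vehicle against 0, 0 and 7 with DOX, and was not tested. KRT78, a further type II keratin of stratified epithelium, had 89, 60 and 58 counts with vehicle against 36, 33 and 68 with DOX in CAL27 cells (log2 fold change -0.48, SE 0.280, edgeR adjusted p = 0.178), and 6, 2 and 8 with vehicle against 0, 0 and 0 with DOX in HSC3 cells.

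Of the suprabasal keratins of cornifying epithelium, KRT1 and KRT9 fell in CAL27 cells and KRT10 passed in neither line. KRT10, the type I keratin of the spinous layer, was at 13.6, 12.7 and 14.2 CPM with vehicle against 15, 13.8 and 13.2 with DOX in CAL27 cells. It was at 18.6, 18.7 and 23.6 CPM with vehicle against 18.5, 15.5 and 15.1 with DOX in HSC3 cells. The groups overlapped in CAL27 cells (log2 fold change 0.05, 95% interval -0.10 to 0.20, edgeR adjusted p = 0.604), and in HSC3 cells the difference did not pass (log2 fold change -0.31, 95% interval -0.59 to -0.04, edgeR adjusted p = 0.0896). Without HSC3 DOX replicate 1 it did, with a log2 fold change of -0.41 and an edgeR adjusted p of 0.00441. KRT1, the type II partner of KRT10, had 350, 196 and 304 counts with vehicle against 34, 8 and 30 with DOX in CAL27 cells, a 10.7-fold fall (log2 fold change -3.42, SE 0.297, edgeR adjusted p = 1.3e-07). In HSC3 cells KRT1 had 12, 12 and 10 counts with vehicle against 0, 0 and 12 with DOX, and did not pass (edgeR adjusted p = 0.485). KRT9, the type I keratin of palm and sole, had 98, 94 and 98 counts with vehicle against 10, 30 and 20 with DOX in CAL27 cells (log2 fold change -2.14, SE 0.331, edgeR adjusted p = 2.1e-05). Its counts in HSC3 cells, 30, 41 and 56 with vehicle against 76, 28 and 14 with DOX, overlapped.

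KRT80, a type II keratin found in many epithelia and grouped here with the suprabasal genes, went in opposite directions. It was at 88.1, 93.0 and 84.5 CPM with vehicle against 153, 151 and 152 with DOX in CAL27 cells, and at 27.8, 26.6 and 27.4 with vehicle against 18.6, 20 and 18.2 with DOX in HSC3 cells. It rose 1.72-fold in CAL27 cells (log2 fold change 0.78, SE 0.041, edgeR adjusted p = 6.0e-12) and fell 1.44-fold in HSC3 cells (log2 fold change -0.52, SE 0.084, edgeR adjusted p = 8.3e-04). In neither line did the groups overlap.

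The paired simple-epithelium keratins KRT8 and KRT18 rose in both lines. KRT8, the type II member, was at 231, 244 and 218 CPM with vehicle against 639, 637 and 616 with DOX in CAL27 cells. Among HSC3 libraries KRT8 was at 290, 297 and 267 CPM with vehicle against 621, 924 and 824 with DOX, with replicate 1 the lowest and still above all vehicle libraries. It rose 2.73-fold (log2 fold change 1.45, SE 0.043, edgeR adjusted p = 1.9e-15) and 2.77-fold (log2 fold change 1.47, SE 0.121, edgeR adjusted p = 7.7e-06). KRT18, its type I partner, was at 88.0, 94.7 and 88.8 CPM with vehicle against 222, 221 and 205 with DOX in CAL27 cells, and at 192, 186 and 180 with vehicle against 343, 444 and 450 with DOX in HSC3 cells. It rose 2.39-fold (log2 fold change 1.26, SE 0.043, edgeR adjusted p = 1.1e-14) and 2.22-fold (log2 fold change 1.15, SE 0.096, edgeR adjusted p = 8.4e-06). The rises were close in size in the lines: the difference was 0.02 (95% interval -0.28 to 0.32) for KRT8 and -0.11 (95% interval -0.35 to 0.13) for KRT18. KRT8 and KRT18 are neighbours on chromosome 12 on opposite strands, and 7.6% of KRT8 exon bases and 17.1% of those of KRT18 lie under the other gene. Reads on 51 KRT8 and 67 KRT18 pseudogene symbols were 2.16% to 5.18% and 1.99% to 5.58% of those on the parent gene in the 4 groups.

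KRT19 and KRT7, also keratins of simple epithelia, did not follow that pair throughout. KRT19, a type I keratin with no tail domain, had 177, 151 and 130 counts with vehicle against 52, 37 and 31 with DOX in CAL27 cells, a 3.46-fold fall (log2 fold change -1.79, SE 0.250, edgeR adjusted p = 6.1e-06). In HSC3 cells it was at 182, 211 and 175 CPM with vehicle against 204, 313 and 283 with DOX, and replicate 1 with DOX lay within the vehicle range. The rise there was 1.41-fold (log2 fold change 0.50, SE 0.133, edgeR adjusted p = 0.0172). Its adjusted p was 0.0832 without HSC3 vehicle replicate 1, 0.0860 without vehicle replicate 3, 0.0558 without DOX replicate 2, 0.0681 without DOX replicate 3 and 0.0784 with no filter on low counts. KRT7, a type II keratin of glandular and ductal epithelium, had 150, 89 and 133 counts with vehicle against 202, 177 and 239 with DOX in CAL27 cells, and rose 1.82-fold (edgeR adjusted p = 2.4e-04). In HSC3 cells KRT7 had 84, 37 and 55 counts with vehicle against 186, 108 and 90 with DOX, with a log2 fold change of 0.76 (95% interval -0.08 to 1.60, edgeR adjusted p = 0.175).

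**Figure D2:**
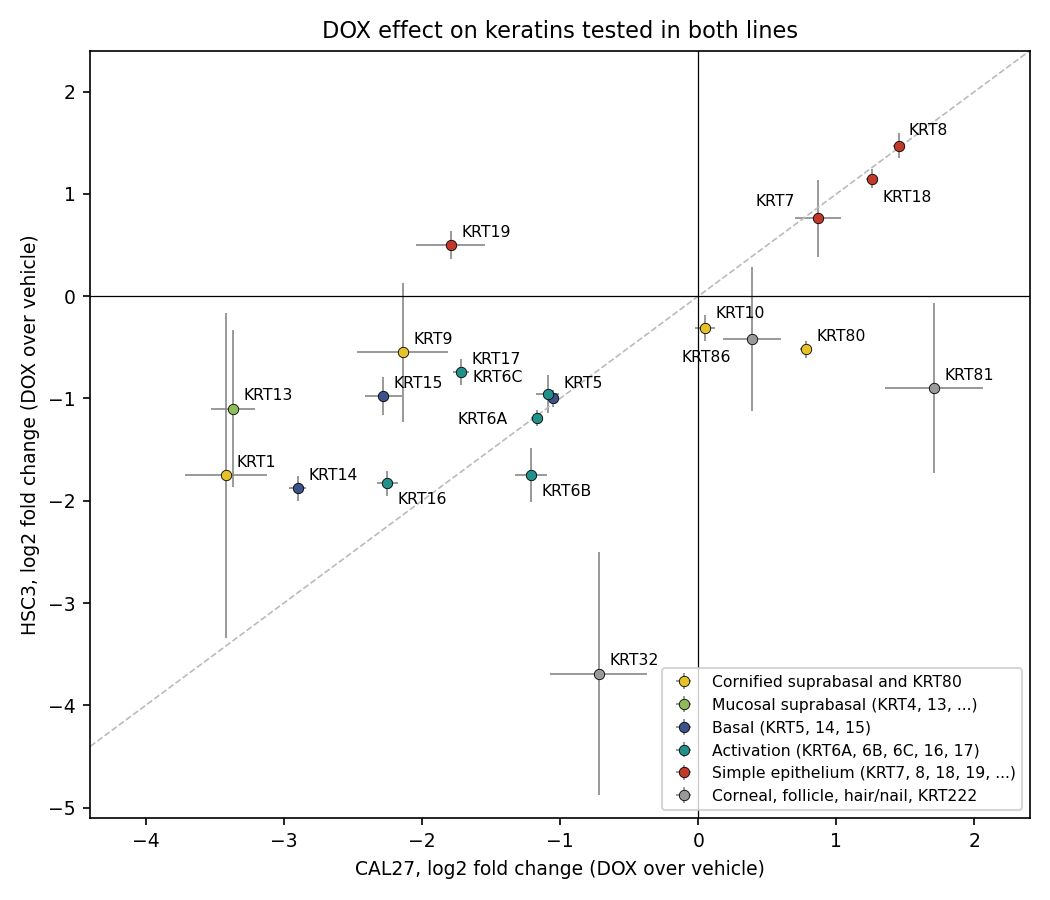
Log2 fold change of DOX over vehicle in CAL27 cells (x axis) and HSC3 cells (y axis) for the 20 keratins tested in both lines, with bars of 1 standard error from edgeR and a dashed line of equal change. Basal and activation keratins lie at the lower left, and KRT8, KRT18 and KRT7 at the upper right. KRT19 and KRT80, which passed in both lines, lie in the quadrants of opposite sign, as do KRT10, KRT81 and KRT86, which did not pass in both.

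The remaining keratins that passed had few counts. In CAL27 cells KRT3, a corneal keratin, had 68, 58 and 51 counts with vehicle against 16, 15 and 7 with DOX (log2 fold change -2.06, SE 0.397, edgeR adjusted p = 2.4e-04). KRT222, which is related to type I keratins, had 55, 28 and 32 counts with vehicle against 26, 10 and 8 with DOX in CAL27 cells and 0 in all 6 HSC3 libraries. KRT74, a keratin of the hair root sheath, had 14, 15 and 14 counts with vehicle against 5, 0 and 4 with DOX in CAL27 cells. Exons of KRT222 lie for 34.5% under another gene of the same strand. KRT222 (edgeR adjusted p = 0.0417) lost its call without any 1 vehicle library, without library 5 or 6 of the DOX libraries (numbered 4 to 6) and by DESeq2, with adjusted p of up to 0.191 with a library left out. KRT74 (edgeR adjusted p = 0.0224) lost its call without vehicle replicate 2 or 3, without DOX library 5 and by DESeq2, with adjusted p of up to 0.0999 with a library left out. KRT81, a hair keratin that shares 44.6% of its 50-base stretches with other genes, had 30, 14 and 20 counts with vehicle against 42, 82 and 65 with DOX in CAL27 cells (log2 fold change 1.71, SE 0.355, edgeR adjusted p = 4.9e-04). In HSC3 cells KRT81 had 32, 45 and 34 counts with vehicle against 54, 26 and 4 with DOX. KRT32, a hair keratin, had 58, 26 and 20 counts with vehicle against 2, 8 and 0 with DOX in HSC3 cells (edgeR adjusted p = 0.0394), and it lost its call without any 1 vehicle library or DOX replicate 3, with adjusted p of up to 0.229. In 1 fit over all 12 libraries the CAL27 calls of KRT3 and KRT81 were lost too, with edgeR adjusted p of 0.0871 and 0.0709. The estimated counts per molecule in HSC3 libraries were 4.19 to 17.3, so these HSC3 counts may stand for fewer molecules. Of all 55 keratins, 26 were tested in neither line, 27 (KRT74 among them) had at most 20 counts in every library, and 5 had no count in any library.

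Together these changes altered the make-up of the keratin transcripts. The summed level of the 55 keratins was 1850, 1810 and 1810 CPM per kb in CAL27 cells with vehicle against 874, 861 and 818 with DOX, and 1560, 1760 and 1530 with vehicle against 814, 1080 and 1030 with DOX in HSC3 cells. Keratins took 0.702% ± 0.0037 (SD, n = 3) of all counts with vehicle against 0.354% ± 0.0118 with DOX in CAL27 cells, and 0.536% ± 0.0398 against 0.355% ± 0.0572 in HSC3 cells. The simple-epithelium keratins made up 3.42%, 3.72% and 3.40% of the summed level per kb in CAL27 cells with vehicle against 19%, 19.2% and 19.2% with DOX. In HSC3 cells their share was 11.7%, 11.1% and 11.3% with vehicle against 35.6%, 38.2% and 37.5% with DOX. The basal share differed by more than the spread between libraries, at 79.2% ± 0.23 (SD, n = 3) with vehicle against 64.4% ± 0.29 with DOX in CAL27 cells and 70.9% ± 0.31 against 47.1% ± 1.18 in HSC3 cells. The activation share was 14.9% ± 0.27 with vehicle against 11.2% ± 0.34 with DOX in CAL27 cells, and 16.6% ± 0.13 against 14.5% ± 0.31 in HSC3 cells. KRT80 with the cornified suprabasal genes went from 1.53% ± 0.03 to 4.88% ± 0.13 in CAL27 cells. In HSC3 cells their share was 0.971%, 0.853% and 1.14% with vehicle against 1.6%, 1.09% and 1.09% with DOX, and the groups overlapped. These shares are a description, with no test.

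**Figure D3:**
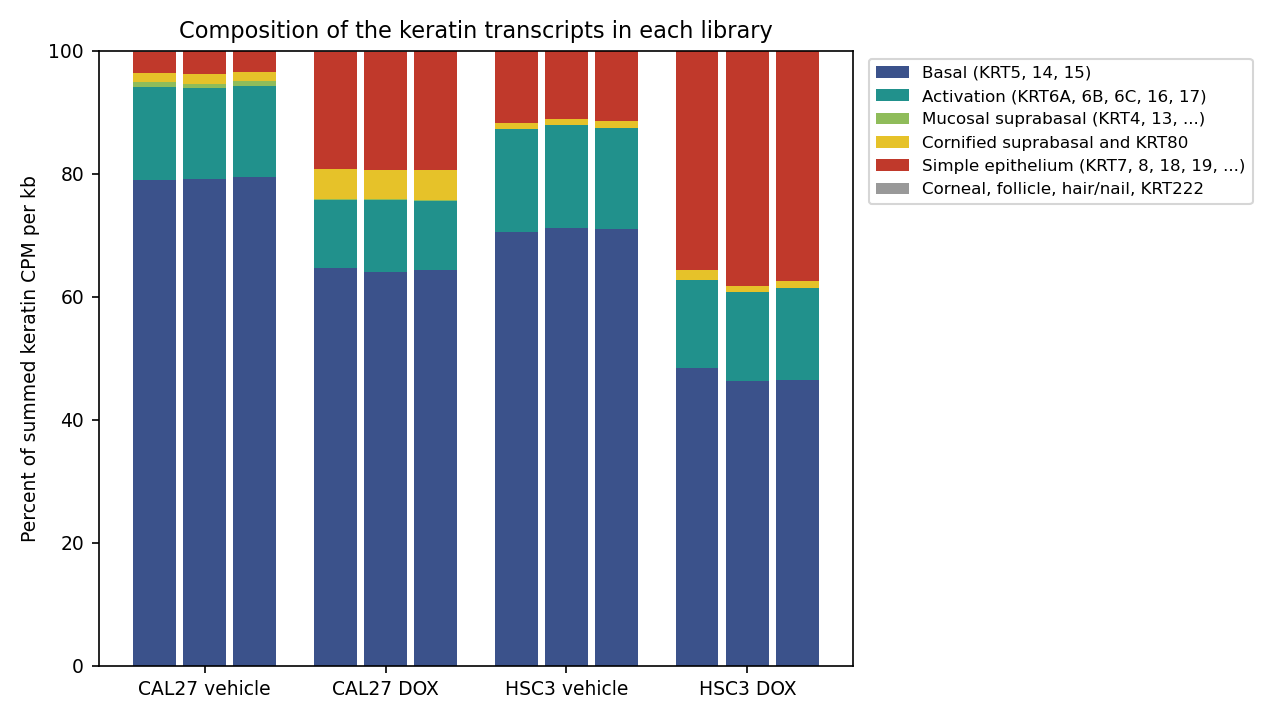
Share of each group of keratins in the summed keratin level (CPM per kilobase of merged exons, in percent), with 1 bar per library and 3 bars per group. Simple-epithelium keratins took 3.40% to 3.72% of the level in CAL27 vehicle libraries and 19% to 19.2% in DOX libraries, and 11.1% to 11.7% and 35.6% to 38.2% in the HSC3 libraries.

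Transcripts of partner genes were not in equal amounts, and their ratios moved with DOX. These are RNA levels, and keratin protein was not examined here. Per kb, KRT5 was at 3.35, 3.42 and 3.29 times KRT14 in CAL27 cells with vehicle against 11.5, 11.6 and 13.2 times with DOX. In HSC3 cells the ratio was 1.32, 1.20 and 1.30 with vehicle against 2.52, 2.26 and 2.24 with DOX. Type I genes made up 37.0% ± 0.45 (SD, n = 3) of the summed level per kb in CAL27 cells with vehicle against 23.7% ± 1.27 with DOX, and 51.4% ± 1.04 and 50.7% ± 1.36 in HSC3 cells, where the groups overlapped. With the canonical transcript length the HSC3 shares were 47.1%, 48.6% and 46.7% with vehicle against 43.7%, 45% and 45.9% with DOX, and did not overlap. The ratio of KRT14 to KRT18, type I genes of basal and simple cells, went from 10.5, 9.33 and 10.2 to 0.585, 0.572 and 0.524 in CAL27 cells. In HSC3 cells it went from 7.53, 9.27 and 7.98 to 0.993, 1.05 and 1.00. With the canonical transcript these were 6.63, 5.92 and 6.49 against 0.371, 0.363 and 0.333 in CAL27 cells, and 4.78, 5.88 and 5.06 against 0.63, 0.666 and 0.635 in HSC3 cells. KRT8 was at 1.17, 1.15 and 1.09 times KRT18 with vehicle against 1.28, 1.29 and 1.34 times with DOX in CAL27 cells, and at 0.676, 0.711 and 0.662 times with vehicle against 0.808, 0.929 and 0.817 times with DOX in HSC3 cells. With the canonical transcript in place of merged exons, the HSC3 ratios were 1.20, 1.26 and 1.18 with vehicle against 1.44, 1.65 and 1.45 with DOX, so which of KRT8 and KRT18 was higher there depended on the length used. In CAL27 cells they were 2.08, 2.04 and 1.94 with vehicle against 2.28, 2.29 and 2.37 with DOX.

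Whether DOX acted unequally in the lines was tested as the interaction of line and DOX over all 12 libraries, where a positive value means a smaller fall or a larger rise in HSC3 cells. Of the 29 keratins tested, 5 passed with a positive value, against 8.25% of all genes, and 2 with a negative value, against 12.3% of all genes. Past 2-fold, 4 were positive (2.19% of all genes) and 2 were negative (3.02%). The 5 positive genes were all type I genes on chromosome 17. Of the 29 tested, 13 were type I genes and 13 lay on chromosome 17. KRT14 had an interaction of 1.02 (SE 0.148, edgeR adjusted p = 1.5e-04), KRT15 of 1.29 (SE 0.234, edgeR adjusted p = 9.8e-04) and KRT17 of 0.98 (SE 0.160, edgeR adjusted p = 4.2e-04), so these 3 fell by less in HSC3 cells. KRT13 had 2.25 (SE 0.510, edgeR adjusted p = 0.00506) from low HSC3 counts, and its adjusted p was 0.0886 when counts were divided by the counts per molecule. KRT19 had 2.30 (SE 0.296, edgeR adjusted p = 5.5e-05), with a fall in CAL27 cells. The negative genes were KRT80, at -1.30 (SE 0.076, edgeR adjusted p = 3.8e-08), and KRT78, whose HSC3 DOX libraries were all at 0. Without HSC3 DOX replicate 1, and also without replicate 3, 4 keratins were negative. MUC1 also differed, with an interaction of 1.36 (SE 0.247, edgeR adjusted p = 0.00101), and its part in these differences was not tested.

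The lines already differed with vehicle. In a fit of the 6 vehicle libraries on a joint scale, 9 of 28 keratins tested (32.1%) were higher in HSC3 cells. That count was near the background, with 34.7% of all genes higher. Another 15 keratins (53.6%) were lower, against 37.1% of all genes. Past 2-fold the counts were 5 higher (14.2% of all genes) and 11 lower (20.5%). KRT19 differed most among the higher genes, with 1.29, 1.41 and 1.08 CPM in CAL27 cells against 202, 235 and 193 in HSC3 cells, a 167-fold difference (log2 difference 7.38, SE 0.102, edgeR adjusted p = 1.0e-14). KRT18 was 2.49-fold higher in HSC3 cells (log2 difference 1.32, SE 0.042, edgeR adjusted p = 1.4e-11) and KRT8 1.49-fold higher (log2 difference 0.58, SE 0.051, edgeR adjusted p = 2.9e-07). KRT14 was at 622, 590 and 610 CPM in CAL27 cells and at 1170, 1410 and 1170 in HSC3 cells (log2 difference 1.04, SE 0.064, edgeR adjusted p = 8.2e-09). KRT10 was 1.82-fold higher in HSC3 cells (edgeR adjusted p = 2.5e-06).

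Among the lower genes, KRT15 was at 856, 885 and 913 CPM in CAL27 cells and at 58.1, 77.0 and 63.0 in HSC3 cells (log2 difference -3.75, SE 0.086, edgeR adjusted p = 7.2e-13). The mucosal suprabasal keratins showed wide gaps, with KRT13 at 26.1, 24.4 and 24.8 CPM in CAL27 cells against 0.569, 0.221 and 0.161 in HSC3 cells, a 77.3-fold difference (log2 difference -6.27, SE 0.229, edgeR adjusted p = 5.0e-11). KRT4 was at 13.9, 10.1 and 13.5 CPM in CAL27 cells and had 6, 7 and 1 counts in the HSC3 libraries. KRT80 was 2.68-fold lower in HSC3 cells (edgeR adjusted p = 2.5e-11), KRT1 20.9-fold lower (edgeR adjusted p = 1.7e-08) and KRT5 1.28-fold lower (log2 difference -0.36, SE 0.045, edgeR adjusted p = 1.1e-05). The small differences of KRT17 (0.28) and KRT6A (0.31) depended on the scaling: scaling by library totals moved the median log2 difference of all genes from -0.1 to -0.37 and the share of calls that were higher in HSC3 cells from 48.3% to 35.5%, and these values became 0.01 and 0.04 (edgeR adjusted p = 0.946 and 0.541). The other lower genes were KRT3, KRT6C, KRT7, KRT9, KRT74, KRT75, KRT78, KRT86 and KRT222, and the hair keratins KRT31 and KRT34 were the other higher ones, all at low counts except KRT6C. The calls of KRT7, KRT9 and KRT74 were not stable. KRT7 lost its call without CAL27 vehicle replicate 1 or 3 (adjusted p = 0.066 and 0.0684), KRT9 without replicate 2 or 3 (0.0707 and 0.0588) and KRT74 without any 1 of the 3 (0.0509 to 0.0716), and KRT9 and KRT74 also in 1 fit over all 12 libraries (0.133 and 0.0554). KRT16 and KRT6B did not pass, with log2 differences of -0.15 (95% interval -0.36 to 0.06) and -0.13 (95% interval -0.44 to 0.18). With library totals both passed, at -0.43 and -0.4 (edgeR adjusted p = 0.00118 and 0.0227), and KRT16 passed also without HSC3 vehicle replicate 2 (-0.29, edgeR adjusted p = 0.00372) and with counts divided by counts per molecule (-0.18, edgeR adjusted p = 0.0363).

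**Figure D4:**
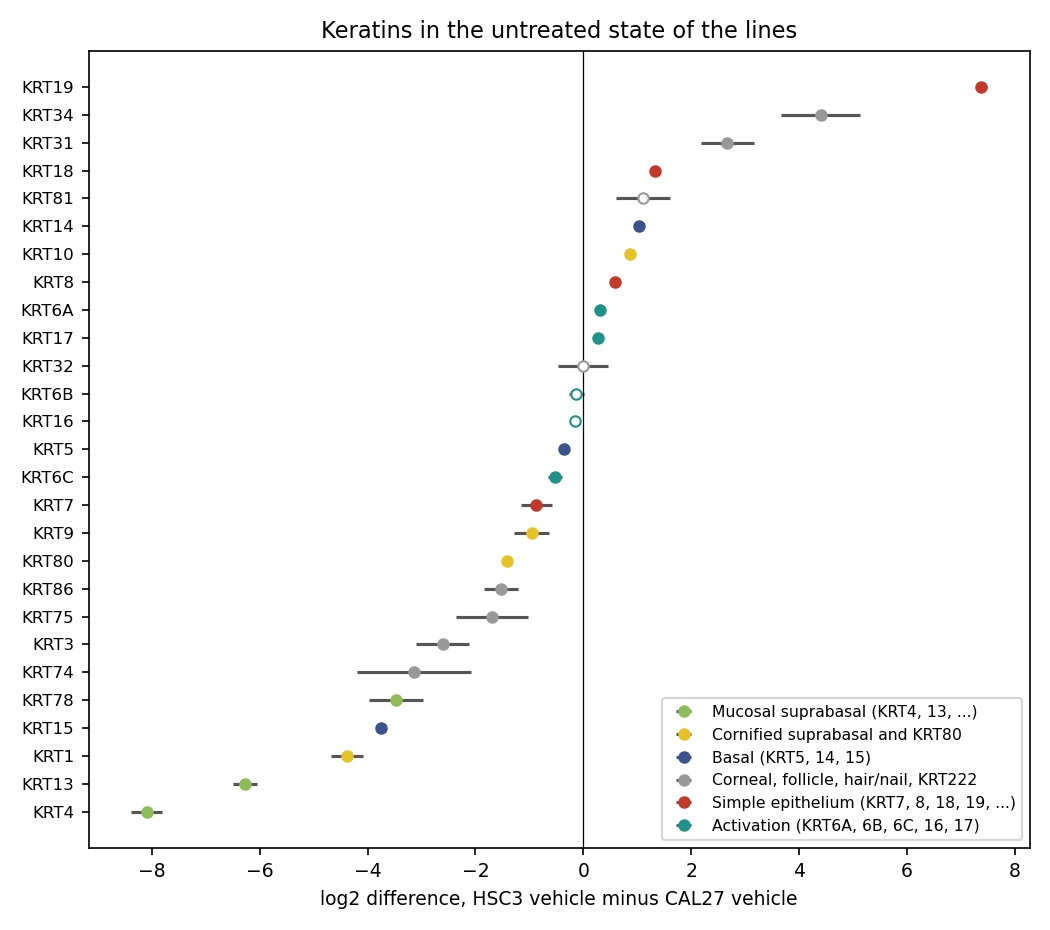
Log2 difference between HSC3 and CAL27 vehicle libraries for the keratins tested, except KRT222, which had 0 counts in HSC3 cells. Points are coloured by group, bars are 1 standard error from edgeR and open points did not pass; KRT19 lies furthest right at 7.38 and KRT4 furthest left at -8.09.

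Transcription factors linked to keratin genes were listed beside the family. Of 13 such genes, all tested, 3 were higher and 7 lower with DOX in CAL27 cells (22.6% and 21.8% of all genes), and 0 were higher and 2 lower in HSC3 cells (13% and 15.4% of all genes), so the HSC3 count of lower genes was near the background; the median log2 fold changes were -0.47 and 0.03. TP63, the regulator of the basal program of stratified epithelia, went from 958, 911 and 942 CPM to 471, 480 and 450 in CAL27 cells and from 737, 736 and 726 to 330, 308 and 313 in HSC3 cells. It fell in both lines, with log2 fold changes of -1.01 (SE 0.040, edgeR adjusted p = 9.4e-14) and -1.21 (SE 0.056, edgeR adjusted p = 1.9e-07). ZNF750, which promotes terminal differentiation, went from 13.1, 13.4 and 13.2 CPM to 3.97, 3.26 and 2.96 in CAL27 cells, and ELF3, an epithelial ETS factor, from 53.6, 57.5 and 58.2 to 30.8, 25.4 and 24.5. Both fell there (edgeR adjusted p = 2.3e-12 and 5.0e-08) and did not pass in HSC3 cells, where they were at most 0.428 CPM and 3.42 CPM. The interaction passed for ELF3 (1.38, edgeR adjusted p = 5.0e-05) and not for ZNF750 (0.36, edgeR adjusted p = 0.679). SOX2 fell in CAL27 cells with a log2 fold change of -1.31 (SE 0.061, edgeR adjusted p = 9.9e-13) and also in HSC3 cells, from 58, 38 and 44 counts to 2, 2 and 12 (edgeR adjusted p = 0.0198). The number of factors that passed in HSC3 cells was 1 without any 1 vehicle library or DOX replicate 2 and with counts divided by counts per molecule. GRHL2 did not pass in either line, at 139, 141 and 141 CPM with vehicle against 143, 139 and 135 with DOX in CAL27 cells. TFAP2A, which binds the AP-2 motif, rose in CAL27 cells with a log2 fold change of 0.14 (SE 0.041, edgeR adjusted p = 0.00772) and had 0.15 in HSC3 cells (edgeR adjusted p = 0.129).

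Of 12 genes that link keratin filaments to junctions or to each other, 5 were higher and 6 lower with DOX in CAL27 cells, beside 22.6% and 21.8% of all genes. In HSC3 cells 1 was higher and 5 were lower, beside 13% and 15.4%. PKP1, the plakophilin of suprabasal desmosomes, went from 225, 209 and 223 CPM to 70.0, 69.6 and 67.4 in CAL27 cells and from 141, 146 and 125 to 59.5, 75.1 and 68.2 in HSC3 cells. PKP2, the plakophilin of simple epithelia and of basal cells, went the other way, from 75.4, 81.9 and 75.3 CPM to 134, 135 and 140 and from 170, 170 and 179 to 265, 238 and 241. The log2 fold changes were -1.67 (SE 0.041) and -1.02 (SE 0.094) for PKP1 and 0.82 (SE 0.043) and 0.52 (SE 0.064) for PKP2, with edgeR adjusted p of at most 1.3e-04. DSP, which anchors keratin filaments at desmosomes, fell in CAL27 cells with a log2 fold change of -0.82 (edgeR adjusted p = 4.0e-12) and had -0.16 in HSC3 cells (edgeR adjusted p = 0.055), with an interaction of 0.66 (edgeR adjusted p = 4.4e-06). JUP fell (-0.48) and PLEC rose (0.71) in CAL27 cells (edgeR adjusted p = 2.2e-08 and 4.5e-06). Neither passed in HSC3 cells, at 0.02 and 0.27 (edgeR adjusted p = 0.942 and 0.221). DST fell slightly in both lines, by -0.16 and -0.20 (edgeR adjusted p = 0.0157 and 0.0231).

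Of 13 other intermediate filament genes, 10 were tested in CAL27 cells and 9 in HSC3 cells. With DOX, 3 were higher and 2 lower in CAL27 cells (22.6% and 21.8% of all genes), and 1 was higher and 2 were lower in HSC3 cells (13% and 15.4%), near the background in both lines. LMNA, the gene of the A-type nuclear lamins, rose in both lines, with log2 fold changes of 0.37 (SE 0.038, edgeR adjusted p = 9.6e-08) and 0.64 (SE 0.111, edgeR adjusted p = 0.00132). VIM, the filament protein of mesenchymal cells, was at 0.230, 0.358 and 0.273 CPM in CAL27 cells with vehicle against 0.490, 0.247 and 0.633 with DOX, and at 321, 322 and 332 with vehicle against 302, 298 and 305 with DOX in HSC3 cells. Bulk RNA of HSC3 cells therefore held vimentin transcripts next to those of KRT5, KRT14, KRT8 and KRT19, and whether the same cells held both was not tested. VIM did not pass for DOX in either line (edgeR adjusted p = 0.142 and 0.166), and its vehicle levels differed by 10.44 (SE 0.080, edgeR adjusted p = 2.4e-16) on the log2 scale. Its interaction of line and DOX passed (-0.83, SE 0.267, edgeR adjusted p = 0.0381), with the CAL27 levels near the limit of detection.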

How the data were processed

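RNA was extracted with TRIzol, made into TruSeq Stranded mRNA libraries and aligned with STAR. Submitters' processing notes name GRCh38, FastQC 0.11.9, STAR 2.7.9a, Subread 2.0.1 and featureCounts. How multiply mapped and duplicated reads and strand were treated is not given in the sources used here. The authors deposited whole-number counts per gene symbol, 1 table for each line, with no normalization. CAL27 DOX columns are numbered 4 to 6 and carry no replicate number of the samples.

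In R 4.3.3, edgeR 4.0.16 (TMM, filterByExpr minimum count 10, minimum total 15, robust glmQLFit, two-sided glmQLFTest) was fitted to whole tables, with Benjamini-Hochberg adjustment across each fit. SE is the log2 fold change divided by the square root of F, and 95% intervals use its degrees of freedom. Levels are CPM scaled by TMM within a line, or over the 6 vehicle libraries for the baseline comparison. Levels of different genes were compared per kilobase of merged GENCODE v44 exons. These may include retained introns, and 38934 of 39368 symbols matched that annotation. Fits were tested on simulated data. The number of counts per molecule was derived from the share of zeros among genes expected at 8 to 16 counts, and ran above the truth in simulations. Libraries of a group were distinct: at most 1.93% of genes had equal counts in a pair.

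A keratin was described if its mean was at least 10 CPM in a group or if it passed for DOX in either line (23 genes), and others by counts. Of the other lists, the 4 genes with the highest CPM and the 4 with the smallest adjusted p could be named. All 8 epithelial markers were named. The members and lists were chosen with earlier results of these data known. Same-numbered HSC3 libraries deviated from their group means with correlations of -0.13, 0.15 and -0.14, so the numbers were not taken as pairs. Alternatives were DESeq2 1.42.0, its size factors, library totals, no filter, 1 fit over 12 libraries, counts divided by counts per molecule, the replicate block, other gene lengths and each library left out.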

Additional observations from a re-analysis of the deposited data

Results flagged for a closer look

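The DOX effect differed between HSC3 and CAL27 cells by edgeR's interaction test for 7 keratins. The log2 interaction was 1.02 for KRT14, 1.29 for KRT15, 0.98 for KRT17, 2.25 for KRT13 and 2.30 for KRT19, and it was -1.30 for KRT80. For KRT78 the fitted value was -5.08, but all HSC3 DOX libraries were at 0 and the vehicle libraries had 6, 2 and 8 counts, so that value depends on the prior count and is no bound.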

How the results depend on the processing

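Alternatives were run gene by gene for the 23 keratins described, not for KRT78, KRT31, KRT34, KRT75 and KRT86. None of the 23 changed direction where it had passed. Of the refitted values, 1143 kept their side of the threshold, 37 passed no longer and 21 passed newly. These numbers leave out genes with too few counts to be tested once counts were divided by the counts per molecule. Among those were the calls of KRT32 in HSC3 cells, KRT74 in CAL27 cells, and KRT222 and KRT74 at baseline. Requiring over 2-fold gave 3 higher keratins in CAL27 cells in place of 5, 6 lower in HSC3 cells in place of 10, and 5 higher at baseline in place of 9. DESeq2 gave 4 keratins with a negative interaction in place of 2, and leaving out 1 library gave 2 to 4. In 1 fit over all 12 libraries, 7 linkers in place of 11 and 6 transcription factors in place of 10 passed in CAL27 cells, and 4 factors in place of 2 in HSC3 cells; dividing counts by the counts per molecule gave 1. With 1 library left out, 1 to 3 factors passed in HSC3 cells (1 without any 1 vehicle library or DOX replicate 2), and 1 to 4 other intermediate filament genes in place of 3 (1 without vehicle replicate 3; 2 without vehicle replicate 1 or 2, DOX replicate 2 or 3). The cause was not tested. The share of simple-epithelium keratins in CAL27 cells with vehicle, CAL27 with DOX, HSC3 with vehicle and HSC3 with DOX was 3.51%, 19.1%, 11.4% and 37.1%. It was 4.10%, 21.7%, 12.4% and 39.6% with the longest transcript, 4.64%, 23.9%, 12.4% and 41.0% with no length, and 5.58%, 28.8%, 15.3% and 46.7% with the canonical transcript, an alternative chosen after seeing the data. With the replicate block, 3 keratins were higher and 9 lower in HSC3 cells, and KRT32 was the keratin that lost its call (adjusted p = 0.056); at baseline 9 were higher and 15 lower. No paired analysis was possible for CAL27 cells and the interaction because the CAL27 DOX columns carry no replicate number. Depth in molecules, which was only estimated, may limit the keratins with few counts in HSC3 cells.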
